A study of Mus musculus with 30 samples.

Results

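The cytoplasmic ribosomal protein genes are the genes whose products, together with ribosomal RNA, form the ribosome of the cytosol. They were taken by symbol, as Rpl or Rps followed by a number and optional letters, Rplp0 to Rplp2, and Rpsa, and 81 of the 20563 genes in the table met this rule, 50 of the large and 31 of the small subunit. Their levels were read across 30 RNA-seq libraries of mouse embryonic stem cells and of embryoid bodies, the aggregates in which stem cells differentiate. The study removes partners of PRC2, a Polycomb complex that represses developmental genes, and follows expression before and during differentiation. The 5 lines were Pali wild type, Pali1-/- (Pali1 knockout), Pali1-/-, Pali2-/- (Pali1/2 double knockout), C129 wild type, and Aebp2gt/gt, in which a gene trap interrupts Aebp2. Each line was sampled at day 0, as stem cells on gelatin with the cytokine LIF, and at day 4 and day 8, as embryoid bodies in non-adherent dishes without LIF, with 2 libraries in each of the 15 groups. The labels call the libraries biological duplicates and do not say whether a genotype was 1 clone, so p-values measure the spread between these libraries. Both Pali mutants were compared with Pali wild type, and Aebp2gt/gt with C129 wild type, its parent if the design lists the lines in matching order. For double knockout replicate 1, title and description disagree on the culture state in 2 libraries, those of day 0 and day 4. The titles were followed, and the summed pluripotency markers of the double knockout were 80476 to 83975 at day 0 and 30183 to 33958 at day 4.

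Ribosomal proteins are made in nearly matched amounts, since each ribosome holds about 1 copy of most of them, and their mRNAs are among the most abundant of a growing cell. In mammals their transcripts start within a run of pyrimidines, the terminal oligopyrimidine (TOP) motif, through which the mTOR pathway and LARP1 govern their translation as a group. A few members have paralogs used mainly in certain tissues, such as Rpl10l in the testis of the mouse and Rpl3l in striated muscle. The genome also carries many processed copies of these genes.

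The authors' normalised counts summed to between 15470082 and 18336791 per library, and the steps between low values put the depth at an estimated 13198293 to 28151934 reads. Across genes, which are no independent replicates, log2 values of duplicates correlated at 0.966 to 0.974. Aebp2 lay between 17.1 and 66.4 in the 6 gene trap libraries and between 1232 and 2784 in the other 24. Lcor, the locus of PALI1, lay between 56.9 and 133 in the 12 Pali mutant libraries with a median of 87.6, and had a median of 67.2 in the other 18, and Lcorl, the locus of PALI2, lay between 517 and 641 in the 6 double knockout libraries and between 294 and 858 in the other 24. A value for a whole gene does not resolve the deleted part and so checks neither Pali label. The summed level of 8 pluripotency markers was 106053 and 106126 in Pali wild type at day 0 and 54898 to 64198 at day 8, and 95849 to 102641 in C129 at day 0 and 16737 to 23062 at day 8, with no marker under 10 in both duplicates of these groups. The 8 endoderm markers differed within duplicates of Pali wild type, at 103 and 2243 on day 4 and at 250.1 and 9523 on day 8. The 6 fibroblast and feeder markers summed to 72.3 to 281 in these lines at day 0, 3 of them under 10 in both Pali wild type libraries and 1 in C129, and 4 and 3 of 5 erythroid markers were under 10 there. In bulk samples, fewer cells of a type and less RNA per cell cannot be told apart, and the part of cell composition in the results below was not tested.

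Most members were abundant in every library, and how steady they were beside other genes of like level was not tested. In all, 67 of the 81 members stood at 1000 normalised counts or more in every library, and the highest library of such a member exceeded its lowest by a median of 1.88-fold. The narrowest range among them was 1.49-fold, for Rpl22, a large-subunit protein, and the widest 6.64-fold, for Rps4l. The next widest were 4.46-fold for Rps24 and 3.67-fold for Rps10, both small-subunit proteins. The wide range of Rps10 lay partly between duplicates, which stood at 1159 and 2551 in the double knockout at day 4.

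Levels per kilobase used the length of 1 annotated transcript per gene. This gives only a rough ranking, since that transcript may not be the one expressed and near-identical copies may share reads. Rps2 was highest at 60204 normalised counts per kb (mean of 30 libraries), followed by Rps12 at 57574 and Rps27 at 53640. Rps2 lines the channel through which mRNA enters the small subunit. The lowest were Rps21 at 0.189, Rpl3l at 0.338 and Rps29 at 1.63 normalised counts per kb. These 3 were the members that did not pass the filter of 10 in at least 2 libraries, which left 78 members to test, 49 of the large and 29 of the small subunit. Rpl3l, the striated-muscle paralog of Rpl3, reached at most 2.92 in any library. Rps21 and Rps29 encode ribosomal proteins that every cell uses, so that they are only listed at 0 or close to it, at most 1.27 and 2.09 in any library.

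Besides these 3, 6 members were under 1000 in every library. Rpl17 (318 to 684), Rpl37a (488 to 924), Rpl39 (106 to 251) and Rpl37 (54.2 to 128) encode core large-subunit proteins, while Rpl39l (0.906 to 98.1) is a paralog of Rpl39 enriched in testis and Rpl32l (0.873 to 10.4) is annotated as a processed pseudogene. The 5 members in between included Rpl10l, Rpl36, Rplp2 and Rpl37rt. Rplp2 and Rpl36 were each listed at 0 in some libraries and had duplicates far apart. Rplp2, a protein of the stalk that recruits elongation factors, stood at 1287 in replicate 1 and at 0 in replicate 2 of the double knockout at day 4. In the same 2 libraries, Rpl36 stood at 1227 and 7.82. Neither gene was called in any comparison, and no direction is given for them.

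Near-identical copies bear on these levels. In the GENCODE M21 annotation (GRCm38, the assembly of mm10), 74 of the 81 members had at least 1 other annotated near-identical locus. Such a locus matched at least 80% of the coding length at 95% identity or more. Members annotated without a coding part, such as the pseudogene Rps4l, were matched over the whole transcript instead. Rpl39l, Rpl3l, Rpl8, Rps27l, Rps3 and Rps4l were among those with none. A copy was found for 62 of the 67 abundant members and for 7 of the 9 under 1000. Rplp2 (chromosome 7, 141447370 to 141451585, plus strand) stood low while Rplp2-ps1, a pseudogene named for it, held 2809 to 7180 normalised counts. Rpl37, at 54.2 to 128, has a retrocopy among the members, Rpl37rt, which held 848 to 2054. The sources used here do not say how reads were shared among such copies, so the split of a level between a gene and its copies is uncertain for these members. Rpl28, Rpl38 and Rps28 were not analysed here.

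Promoters were matched by symbol in RefSeq tables (GRCm38.p6), which held 60 of the 81 members. The pyrimidine run CTTTC, or one of its variants CTTCC and also CTTTT, on the sense strand between 5 bases before and 10 bases after the annotated start, as in a TOP mRNA, was found in 17 of the 60 (28.3%) and in 6.95% of 27025 genes with a promoter. CCGGAAG, the core of a site for ETS factors such as GABPA, was found on either strand within 250 bases before to 50 after the start in 24 (40%), against 9.93% of all. AAGATGG, the core of a YY1 site, was found on either strand in 9 (15%), against 7.28%. On the reverse strand the ETS core begins with the second of these pyrimidine runs, so that matches of the 2 can overlap. A match is a description of these windows only. Stretches from 50 bases before to 20 after the start follow for 5 members whose levels are described below, with the bases of any such match in capitals.
Rps24 (chr14:24490628-24490697, plus strand, the upstream of 2 annotated starts): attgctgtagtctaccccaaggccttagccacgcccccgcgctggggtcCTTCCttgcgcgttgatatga
Rps15a (chr7:118116128-118116197, minus strand): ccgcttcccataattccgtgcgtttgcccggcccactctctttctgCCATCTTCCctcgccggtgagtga
Rps27 (chr3:90213629-90213698, minus strand): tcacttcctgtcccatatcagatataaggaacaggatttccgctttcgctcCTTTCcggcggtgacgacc
Rps27l (chr9:66946036-66946105, plus strand, the upstream of 2 annotated starts): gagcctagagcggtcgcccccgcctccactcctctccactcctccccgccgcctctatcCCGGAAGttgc
Rpl10l (chr12:66284382-66284451, minus strand): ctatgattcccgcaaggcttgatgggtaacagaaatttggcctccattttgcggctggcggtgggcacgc
In Rps24 and Rps27 the capitals mark the pyrimidine run (Rps27 also has the YY1 core elsewhere in its longer window), in Rps15a a pyrimidine run that overlaps the YY1 core read on the reverse strand, and in Rps27l the ETS core. Rpl10l, the testis paralog, had none of the 3 motifs in its windows.

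Together the 81 members held 6.06% to 9.25% of all normalised counts of a library, with a median of 7.08%. The share was 6.88% and 6.71% in the Pali wild type duplicates at day 0, 6.55% and 6.99% at day 4, and 7.02% and 7.01% at day 8. The C129 wild type duplicates held 7.61% and 7.36% at day 0, 9.25% and 8.45% at day 4, and 7.41% and 7.14% at day 8. The C129 day 4 libraries were thus the highest of all 30, above both their own day 0 and their day 8. The share was 7.78% and 7.33% in the Pali1 knockout at day 0, 7.51% and 7.70% at day 4, and 6.89% and 6.54% at day 8. It was 6.46% and 6.63%, 6.60% and 6.46%, and 6.06% and 6.25% in the double knockout at the 3 times, and 7.02% and 7.23%, 7.88% and 7.84%, and 7.27% and 7.16% in the Aebp2 gene trap. The double knockout at day 8 held the lowest share, below both Pali wild type libraries of that day.

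The balance between subunits moved with time. The summed level of the large-subunit members over that of the small-subunit members was 1.496 to 1.54 in the 10 day 0 libraries and 1.37 to 1.501 in the 20 embryoid body libraries, with medians of 1.52 and 1.44. In Pali wild type the ratio was 1.53 ± 0.007 (SD, n = 2) at day 0, 1.45 ± 0.016 at day 4 and 1.45 ± 0.0042 at day 8. In C129 wild type it was 1.52 ± 0.0062, 1.43 ± 0.024 and 1.46 ± 0.0056. Day 0 and later libraries did not overlap within a line except in the Aebp2 gene trap, where replicate 2 at day 0 stood at 1.4962 and replicate 1 at day 8 at 1.5014. Mitochondrial ribosomal protein genes, which serve the ribosome of another compartment, held 0.336% to 0.387% of a library at day 0 and 0.278% to 0.332% later.

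**Figure D1:**
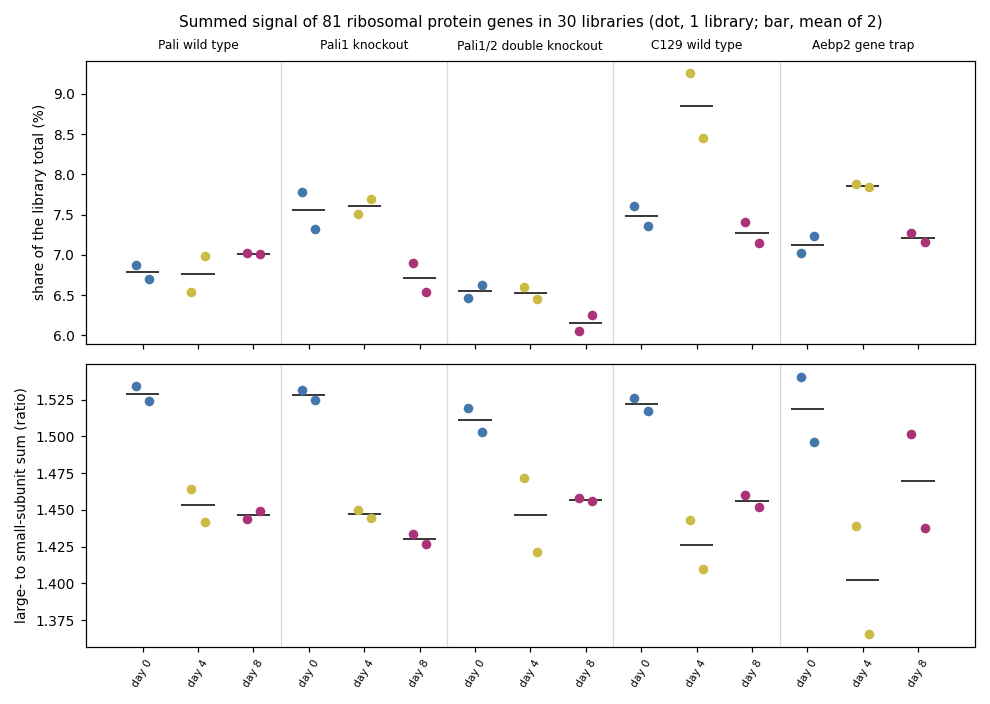
Share of the library total held by the 81 members (upper panel, percent) and the summed level of large- over small-subunit members (lower panel, ratio), by line and day; each dot is 1 library and each bar the mean of 2. The highest share is 9.25%, for C129 wild type at day 4, and the ratio is highest at day 0 in every line by its mean; neither vertical axis starts at 0.

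Each comparison below comes from 1 limma fit of log2(normalised count + 4) over all 15712 genes tested and all 30 libraries, with 15 residual degrees of freedom. A gene was called at a two-sided Benjamini-Hochberg adjusted p under 0.05 within its comparison. Differences are given on that log2 scale with their standard error (SE), and they understate the change of low genes.

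In Pali wild type, few members were called during embryoid body formation. At day 4, 4 of 78 members fell and 0 rose, with a median of -0.11, whereas 14.7% of all genes tested were called higher and 12.7% lower. At day 8, 4 fell and 0 rose, with a median of -0.08, against 14% of all genes higher and 11.7% lower. At an unadjusted limma p under 0.05, 12 and 11 of the 78 members passed. The share of all genes at that threshold was not counted, and 27.3% and 25.8% of them passed even the adjusted one. The stalk protein gene Rplp0 was 58011 and 59957 at day 0, 45942 and 49604 at day 4, and 45552 and 49533 at day 8. It fell by 0.30 ± 0.08 (adjusted p = 0.011) and by 0.31 ± 0.08 (adjusted p = 0.0105), and the groups did not overlap. Rpl24, which helps to bridge the subunits, fell by 0.23 ± 0.07 (adjusted p = 0.0199) and 0.22 ± 0.07 (adjusted p = 0.0314), calls kept in 1 and 0 of the 4 fits that left out 1 library. The other calls were Rpl10l at both days, Rps4l at day 4 and Rpl36al at day 8, which are paralogs described below. The count at day 4 was 2 without replicate 1 and 1 without replicate 2 of day 0, and 1 without replicate 1 of day 4. The count at day 8 was 2 without either day 0 library and 1 without replicate 1 of day 8. With every library scaled to the same total, which moved the median of all genes to 0.14 at day 8, the members' median at day 8 changed sign to 0.03 and 3 were called higher and 3 lower; at day 4 the split was 1 higher and 4 lower.

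In C129 wild type the called members were mostly higher at day 4, and at day 8 all called members were lower. At day 4, 16 of 78 members rose and 3 fell, with a median of 0.16, against 14% of all genes higher and 15% lower. At day 8, 0 rose and 37 fell, with a median of -0.26, against 23.4% higher and 22.4% lower. Of the 37, 22 were among the 49 large-subunit members and 15 among the 29 small-subunit members. Counted in either direction, 24.4% of the members were called at day 4 and 47.4% at day 8, against 29.1% and 45.8% of all genes.

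The day 4 rises came from both subunits, 8 of each. Rps27, a zinc-finger protein of the small subunit, stood at 18658 and 18997 at day 0 and at 26881 and 23738 at day 4, and rose by 0.42 ± 0.09 (adjusted p = 0.00213). Rps26, which lies where mRNA leaves the small subunit, stood at 6898 and 6741 and then at 9579 and 8894, and rose by 0.44 ± 0.09 (adjusted p = 0.00178). The day 0 and day 4 libraries did not overlap for either gene. Rps15, close to the decoding site, rose by 0.44 ± 0.09 (adjusted p = 0.0015). Calls for Rps27, Rps26 and Rps15 held in each of the 4 fits that left out 1 library and under each other alternative tried. Rpsa, which also serves as a laminin receptor, rose by 0.34 ± 0.08 (adjusted p = 0.00257), and lost the call in 1 of the 4 fits. Rps6, the substrate of S6 kinase, rose by 0.24 ± 0.08 (adjusted p = 0.0347) and Rpl5, which with 5S RNA binds Mdm2, by 0.33 ± 0.10 (adjusted p = 0.0154); their calls were kept in 1 and 2 of the 4 fits. The largest rise was 0.64 ± 0.16 for Rpl15 (adjusted p = 0.00453), and Rpl27a rose by 0.46 ± 0.11 (adjusted p = 0.00416); these calls were kept in 3 and 2 of the 4 fits. The count at day 4 was 12 without replicate 1 and 8 without replicate 2 of day 0, 9 without replicate 1 of day 4, and 28, of which 27 rose, without replicate 2 of day 4. With equal totals it was 36 higher and 2 lower.

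The day 8 falls were small in most of the abundant members. The summed level of fibroblast and feeder markers was 1472 to 3929 in C129 at day 8, against 210 to 281 at day 0. At day 8 it was 1169 to 1310 in Pali wild type and 2378 to 2546 in the gene trap. The pluripotency markers stood at 16737 to 23062 and the endoderm markers at 2055 to 4638 in C129 at day 8. At day 0 they stood at 95849 to 102641 and at 136 to 213. What cell composition contributes to these falls was not tested. Rpl30, of the large subunit, stood at 12682 and 12697 at day 0 and at 9550 and 8034 at day 8, and fell by 0.53 ± 0.10 (adjusted p = 0.000203). The stalk protein gene Rplp1 stood at 5273 and 5498 and then at 4094 and 3475, and fell by 0.51 ± 0.12 (adjusted p = 0.00178). Neither gene's libraries overlapped between the days. Rplp0 fell by 0.35 ± 0.08 (adjusted p = 0.00202) and Rpl10, which is needed for the joining of the subunits, by 0.33 ± 0.08 (adjusted p = 0.00195), and both lost the call with equal totals. Rpl11, the partner of Rpl5, fell by 0.32 ± 0.12 (adjusted p = 0.0331), Rps25 by 0.32 ± 0.10 (adjusted p = 0.0166) and the X-linked Rps4x by 0.24 ± 0.09 (adjusted p = 0.0305); these calls were kept in 1, 1 and 0 of the 4 leave-one-out fits. Rpl5 at 0.06, Rps19 at 0.16, Rps27a at -0.03 and Rpl41 at -0.04 were not called. Rpl41 is the smallest ribosomal protein, Rps27a is made as a fusion with ubiquitin, and Rps19 is the gene most often mutated in Diamond-Blackfan anaemia in humans. Leaving out any 1 library gave 27 to 36 calls, and 16 of the 37 calls held in all these fits and under all other alternatives. With equal totals, which moved the median of all genes to 0.19, the split was 7 higher and 16 lower and the members' median -0.07.

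Other genes of the ribosome pathway were compared from lists chosen by known function, with earlier results of these data known. Of 39 ribosome biogenesis factors, 0 rose and 28 fell from day 0 to day 8 in Pali wild type, with a median of -0.43, and 0 rose and 31 fell in C129, with a median of -0.70. Nop56 and Nop58, proteins of the box C/D particles that guide RNA methylation, fell by 1.13 and 1.10 in C129 (adjusted p = 1.62e-07 and 3.46e-07). At day 4, 0 rose and 19 fell in Pali wild type, and 4 rose and 17 fell in C129. Of 75 mitochondrial ribosomal protein genes tested, 1 rose and 34 fell at day 8 in Pali wild type, with a median of -0.35, and 4 rose and 38 fell in C129, with a median of -0.39. At day 4, 1 rose and 25 fell in Pali wild type, and 2 rose and 20 fell in C129. Over all genes tested, the shares called higher and lower at day 8 were 14% and 11.7% in Pali wild type and 23.4% and 22.4% in C129, and at day 4 they were 14.7% and 12.7% and 14% and 15%. In Pali wild type at day 8, 4 of 78 cytoplasmic members fell; no test of the difference between lists was made.

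The lists that follow stand beside the same shares of all genes. At day 8 these were 14% higher and 11.7% lower in Pali wild type and 23.4% and 22.4% in C129. At day 4 they were 14.7% and 12.7%, and 14% and 15%. Of 14 RNA polymerase I genes, 5 fell at day 8 in Pali wild type and 6 in C129, and none rose. At day 4, 6 fell in Pali wild type, and 1 rose and 1 fell in C129. Rrn3, an initiation factor of that polymerase, fell by 1.12 at day 8 in C129 (adjusted p = 2.36e-07). Of 7 snoRNA host genes tested, 4 fell in each line at day 8 and 0 rose, and 1 and 2 fell at day 4. Gas5, whose spliced RNA itself carries a TOP motif, fell by 1.02 in Pali wild type at day 8 (adjusted p = 0.000143). Of 20 other TOP mRNAs, mostly translation factors, 1 rose and 6 fell at day 8 in Pali wild type, and 4 rose and 10 fell in C129; at day 4, 1 rose and 4 fell, and 5 rose and 3 fell. Of 21 regulators, 1 rose and 5 fell at day 8 in each line, and the falls in C129 lay near the share of all genes. At day 4, 2 regulators rose and 5 fell in Pali wild type, and 1 rose and 4 fell in C129. Among them, Cdkn1a, a p53 target, rose by 2.49 (adjusted p = 9.25e-08) and Mycn, a driver of ribosome synthesis, fell by 0.48 (adjusted p = 0.000522) at day 8 in C129. Of 6 ribosomal protein genes whose symbols do not follow the rule, Rpl7l1 fell at day 8 in both lines, by 0.32 and 0.64 (adjusted p = 0.00557 and 2.73e-06), and Rps3a1 also fell in C129, by 0.35 (adjusted p = 0.000351). At day 4, Rpl7l1 fell in both lines and Rack1 rose in C129.

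**Figure D2:**
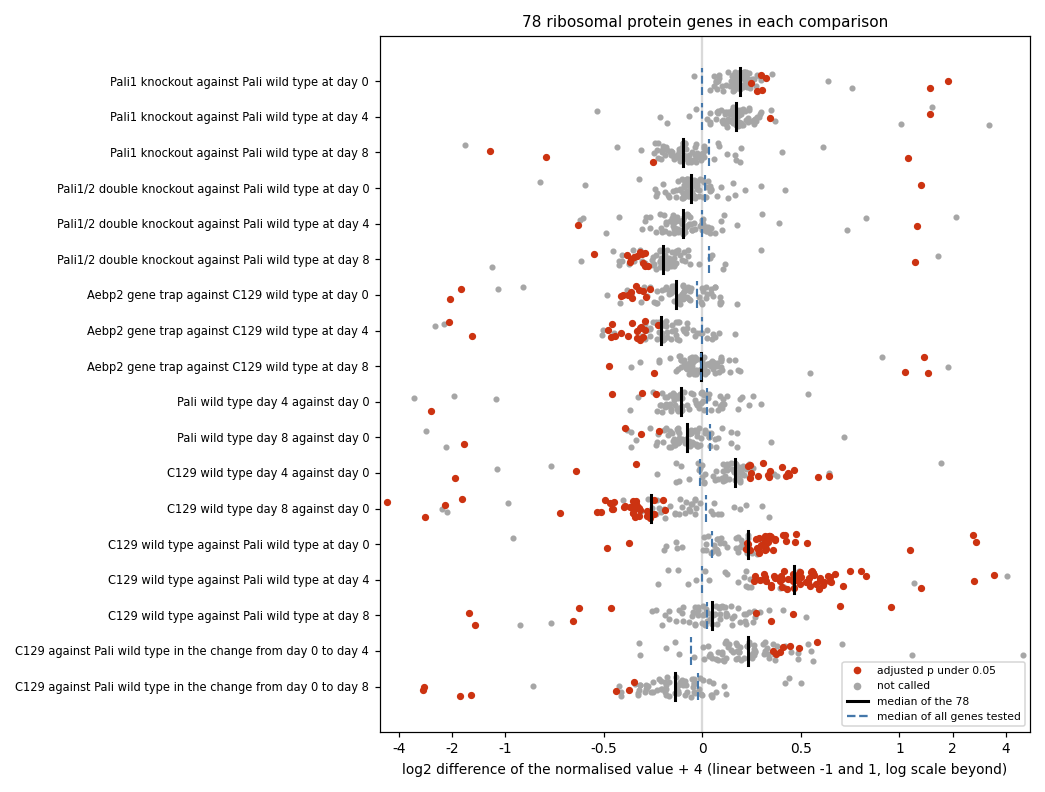
The log2 difference of each of the 78 tested members (dots, red where called) in each of 18 comparisons, with the members' median (black bar) and that of all genes tested (dashed blue bar); the horizontal axis is linear between -1 and 1 and logarithmic beyond. Members lie in a narrow band around a shared shift, widest above 0 for C129 against Pali wild type at day 4 (median 0.46), and Rps24, Rps4l and Rpl10l lie far outside it in several comparisons.

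The 2 wild type lines differed in many members at days 0 and 4. At day 0, 32 of 78 members were higher in C129 than in Pali wild type and 2 lower, with a median of 0.23, against 12% of all genes higher and 9.06% lower. At day 4, 56 were higher and 0 lower, with a median of 0.46, against 8.35% and 7.57%. The 2 C129 libraries lay wholly above or below the 2 Pali libraries for 69 of the 78 members at day 4. The share of all genes without overlap was not counted. In the Pali1 knockout at day 0, 64 of the 78 did not overlap Pali wild type and 7 were called, so such a count says little by itself. At day 8, 5 were higher and 5 lower, with a median of 0.05, against 8.86% and 8.49%.

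At day 4, 36 of 49 large- and 20 of 29 small-subunit members were called higher, and 22 of the 78 were not called. Rps18, of the small-subunit head, was higher by 0.71 ± 0.08 (adjusted p = 2.35e-05), Rpl27a by 0.81 ± 0.11 (adjusted p = 0.000121) and Rpl15 by 0.83 ± 0.16 (adjusted p = 0.00155). Rpl15 stood at 3250 and 4303 in Pali wild type and at 6532 and 6770 in C129, with no overlap. Among members followed for their known roles, Rpsa was higher by 0.56 ± 0.08, Rpl10a by 0.62 ± 0.10, Rps4x by 0.50 ± 0.09, Rpl10 by 0.40 ± 0.08, Rps27a by 0.53 ± 0.11, Rpl41 by 0.56 ± 0.08, Rps25 by 0.40 ± 0.10, Rps6 by 0.39 ± 0.08, Rpl5 by 0.32 ± 0.10 and Rplp0 by 0.29 ± 0.08, with adjusted p between 0.000116 and 0.0322. Rplp1 at 0.11, Rpl11 at 0.23 and Rps19 at 0.25 were not called. Of these 10, Rps25, Rps6, Rpl5 and Rplp0 lost the call without Pali wild type replicate 1 and without C129 replicate 1. Leaving out C129 replicate 1 lowered the count to 35, and 35 of the 56 calls held in every leave-one-out fit and under every other alternative. Outside the rule, Rack1, Fau and Rps3a1 were higher as well, by 0.64, 0.54 and 0.49 (adjusted p = 6.52e-06, 0.0046 and 0.000132).

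The neighbouring lists were read in the same comparison, beside 8.35% of all genes higher and 7.57% lower at day 4, 12% and 9.06% at day 0 and 8.86% and 8.49% at day 8. At day 4, 12 of 20 other TOP mRNAs were higher in C129 and 1, Pabpc1, lower by 0.58 (adjusted p = 0.031), while 8 of 39 ribosome biogenesis factors were higher and 0 lower, and 8 of 75 mitochondrial ribosomal protein genes were higher and 6 lower. Of the RNA polymerase I genes, 5 of 14 genes were higher and 1 lower, 4 of 21 regulators higher, among them Myc by 1.22 and Mycn by 0.62 (adjusted p = 0.00312 and 0.000342), and none of 7 snoRNA host genes was called. At day 0 the counts, higher and lower, were 7 and 2 for other TOP mRNAs, 9 and 2 for biogenesis factors, 10 and 5 for mitochondrial ribosomal proteins, 0 and 2 for RNA polymerase I, 1 and 1 for regulators, 2 and 2 for snoRNA hosts and 2 and 0 for the 6 ribosomal protein genes outside the rule. At day 8 they were 2 and 0, 0 and 6, 0 and 7, 0 and 3, 3 and 2, 0 and 0, and 1 and 0, in the same order.

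The largest steady difference between the wild type lines was that of Rps15a, a protein of the small-subunit body. It stood at 2398 and 2255 in Pali wild type and at 5304 and 4978 in C129 at day 0, at 2019 and 2062 against 5220 and 5040 at day 4, and at 2081 and 2015 against 4150 and 3826 at day 8. The Aebp2 gene trap libraries stood at 3546 to 4197 and the 12 Pali mutant libraries at 1968 to 2487. No library of a Pali line reached the lowest library of C129 or the gene trap. The difference of C129 from Pali wild type was 1.14 ± 0.08, 1.33 ± 0.08 and 0.96 ± 0.08 at the 3 times (adjusted p = 1.84e-08, 8.49e-09 and 4.06e-07) and was called in every leave-one-out fit. Rps15a-ps6, an annotated processed copy of it, stood at 7190 and 6110 in Pali wild type and at 7200 and 7277 in C129 at day 0. For the sum of Rps15a and this copy the ratio of the group means, C129 over Pali wild type, was 0.46, 0.64 and 0.25 on the log2 scale, and for the copy alone 0.12, 0.30 and -0.10. The gene and its copy share sequence, and how far reads or strain differences in sequence moved between them was not tested.

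Rpl34, of the large subunit, went the other way at days 0 and 8. It stood at 9527 and 8829 in Pali wild type and at 6550 and 6561 in C129 at day 0, and at 8361 and 8472 against 5889 and 5051 at day 8. It was lower in C129 by 0.48 ± 0.10 (adjusted p = 0.00135) and 0.63 ± 0.10 (adjusted p = 0.000191), and the lines did not overlap on these days. At day 4 the difference of Rpl34 was not called, with means of 8297 in Pali wild type and 7385 in C129. Rplp1 was lower by 0.37 ± 0.12 at day 0 (adjusted p = 0.0339) and 0.66 ± 0.12 at day 8 (adjusted p = 0.000868), and Rpl13a, which represses translation of inflammatory mRNAs when released from the ribosome, by 0.46 ± 0.08 at day 8 (adjusted p = 0.000819). All day 8 values of these 3 genes held in every leave-one-out fit; the day 0 call of Rplp1 held in none. At day 0 the largest called differences towards C129, after Rpl10l, Rpl39l and Rps15a, were 0.53 ± 0.15 for Rps27l, a p53-inducible paralog of Rps27 (adjusted p = 0.0147), 0.48 ± 0.10 for Rpl12, at the base of the stalk (adjusted p = 0.00158), 0.47 ± 0.07 for Rpl13 (adjusted p = 6.76e-05) and 0.43 ± 0.08 for Rps23, in the decoding centre (adjusted p = 0.00148). Of these, Rps27l lost its call in 3 of the 4 leave-one-out fits. The day 0 count was 19 without Pali wild type replicate 1 or C129 replicate 2, 12 without Pali wild type replicate 2 or C129 replicate 1, and 15 with TMM rescaling. At day 8 the split was 11 higher and 6 lower with equal totals.

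Whether the course over time differed between the wild type lines was tested as an interaction. From day 0 to day 4, 7 of 78 members changed more upward in C129 and 0 more downward, with a median of 0.23, against 3.43% of all genes more upward and 5.56% more downward. They included Rps27, Rplp0, Rps26, Rpl13a, Rps18 and Rps9, by 0.36 to 0.58. Rplp0, for instance, fell from day 0 to day 4 in Pali wild type and stood at 49728 and 53348 and then at 62522 and 54832 in C129, a difference in change of 0.49 ± 0.12 (adjusted p = 0.0153). None of the 7 calls held in all 8 leave-one-out fits, and the count was 0 without replicate 1 of either line at day 4, 1 and 3 without Pali wild type day 0 replicates 1 and 2, 4 without Pali wild type day 4 replicate 2, 2 without either C129 day 0 library and 16 without C129 day 4 replicate 2. From day 0 to day 8, 0 changed more upward and 7 more downward in C129, with a median of -0.14, against 5.87% and 8.32%. Rps24, Rps4l, Rpl10l, Rpl39l and Rpl13 held in all 8 fits and under the other alternatives; Rps23 did not, and the count was 11 without C129 day 8 replicate 1. These tests share their libraries with the comparisons above.

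In the other lists, from day 0 to day 4, the counts of genes that changed more upward and more downward in C129 were 1 and 0 of 6 ribosomal protein genes outside the rule, 2 and 1 of 20 other TOP mRNAs, 0 and 0 of 7 snoRNA hosts, 2 and 1 of 39 biogenesis factors, 2 and 0 of 14 RNA polymerase I genes, 0 and 2 of 75 mitochondrial ribosomal proteins and 2 and 2 of 21 regulators. From day 0 to day 8 they were 0 and 0, 2 and 0, 2 and 0, 0 and 8, 0 and 1, 1 and 7, and 2 and 0. Over all genes 3.43% changed more upward and 5.56% more downward by day 4, and 5.87% and 8.32% by day 8.

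In the Pali1 knockout a few members were called higher in stem cells. At day 0, 7 of 78 members were called higher than in Pali wild type and 0 lower, with a median of 0.19, against 3.04% of all genes higher and 1.75% lower. Of the 78 differences, 77 were above 0. The members share libraries and scaling and are not independent, and the share of all genes above 0 was not counted. At day 4, 2 were higher and 0 lower, with a median of 0.17, against 1.07% and 1.6%. At day 8, 1 was higher and 3 lower, with a median of -0.10, against 7.07% and 6.52%.

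At day 0 the called genes included Rpl13, Rpl13a, Rpl41, Rps23, Rpl10l and Rpl39l. Rpl41 stood at 15704 and 15283 in Pali wild type and at 20492 and 17820 in the knockout and was higher by 0.30 ± 0.08 (adjusted p = 0.0413). At day 4 it stood at 13819 and 15077 and at 18142 and 18486, higher by 0.34 ± 0.08 (adjusted p = 0.0306). The groups did not overlap at either time. Rps23 was higher by 0.32 ± 0.08 (adjusted p = 0.0354), Rpl13a by 0.30 ± 0.08 (adjusted p = 0.0497) and Rpl13 by 0.25 ± 0.07 (adjusted p = 0.0392) at day 0. None of the 9 calls at days 0 and 4 held in every leave-one-out fit. The day 0 count was 2 and 1 without Pali wild type replicates 1 and 2, and 0 and 1 without knockout replicates 1 and 2; it was 3 with upper-quartile and 2 with TMM rescaling. The day 4 count fell to 1 without Pali wild type replicate 1 and to 0 without either knockout library. At day 8 Rpl4, whose product lines the exit tunnel, was lower by 0.25 ± 0.08 (adjusted p = 0.0344), a call lost in 3 of 4 leave-one-out fits, beside Rps24 and Rps4l. The day 8 count was 2 without Pali wild type replicate 2 or knockout replicate 2, and with upper-quartile rescaling 1 was higher and 7 lower.

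In the double knockout few members were called at days 0 and 4, and more were called lower at day 8. At day 0, 1 of 78 members was higher and 0 lower, with a median of -0.06, against 2.95% of all genes higher and 0.719% lower. An unadjusted limma p under 0.05 was reached by 2 members, and the share of all genes at that threshold was not counted. At day 4, 1 was higher and 1 lower, with a median of -0.10, against 0.987% and 1.08%. At day 8, 1 was higher and 12 lower, with a median of -0.20, against 4.13% and 3.08%. Rpl10l was the 1 higher member each time.

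The 12 lower members at day 8 belonged to both subunits, 7 to the small and 5 to the large. Rpl4 stood at 58673 and 58631 in Pali wild type and at 45417 and 45665 in the double knockout, lower by 0.37 ± 0.08 (adjusted p = 0.00828). Rpl3, close to the peptidyl transferase centre, was lower by 0.35 ± 0.08 (adjusted p = 0.0117), Rps15 by 0.38 ± 0.09 (adjusted p = 0.0195), Rps26 by 0.37 ± 0.09 (adjusted p = 0.0251), Rpl8 by 0.33 ± 0.08 (adjusted p = 0.0139) and Rpsa by 0.30 ± 0.08 (adjusted p = 0.0237). The others were Rps24, Rps18, Rpl13, Rpl13a, Rps2 and Rps3. None of these calls held in every leave-one-out fit. Without Pali wild type replicate 1 the count was 7 and without its replicate 2 it was 0, while it was 0 and 4 without double knockout replicates 1 and 2; it was 22 with upper-quartile rescaling. Pali wild type replicate 2 at day 8 is the library with 9523 normalised counts of endoderm markers, and its part in the result was not tested. At day 0 the 1 call was lost without either Pali wild type library or double knockout replicate 1 and in a fit of the Pali lines alone. At day 4 the count was 0 without either Pali wild type library or without double knockout replicate 1.

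In the Aebp2 gene trap the called members at days 0 and 4 were lower than in C129 wild type. At day 0, 0 of 78 members were higher and 12 lower, with a median of -0.13, against 5.23% of all genes higher and 7.78% lower. At day 4, 0 were higher and 18 lower, with a median of -0.21, against 4.05% and 4.96%. At day 8, 3 were higher and 2 lower, with a median of -0.01, against 9.59% and 10.6%.

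At day 0, Rps15a was lower by 0.41 ± 0.08 (adjusted p = 0.00195), Rps12 by 0.40 ± 0.12 (adjusted p = 0.0324), Rps13 by 0.38 ± 0.11 (adjusted p = 0.0281), Rpl12 by 0.36 ± 0.10 (adjusted p = 0.0176) and Rps23 by 0.36 ± 0.08 (adjusted p = 0.0094). Only Rps15a and Rpl10l, of the 12, held in every leave-one-out fit and every other alternative tried. At day 4, Rpl27a stood at 4222 and 3649 in C129 and at 2716 and 2922 in the gene trap, without overlap, and was lower by 0.48 ± 0.11 (adjusted p = 0.0122), Rpl14 by 0.46 ± 0.10 (adjusted p = 0.0102), Rplp1 by 0.46 ± 0.12 (adjusted p = 0.0213), Rps12 by 0.44 ± 0.12 (adjusted p = 0.0252) and Rps13 by 0.41 ± 0.11 (adjusted p = 0.0231). The C129 day 4 libraries stood at 44128 and 39319 for Rps12 and those of the gene trap at 29699 and 31530, without overlap. None of the 18 day 4 calls held in every leave-one-out fit. The day 0 count was 2 without C129 replicate 1, 8 without C129 replicate 2, 3 without gene trap replicate 1, and 3 in a fit of the C129 lines alone. The day 4 count was 1 without C129 replicate 1, the library with the 9.25% share, and 31 without C129 replicate 2. It was 0 without gene trap replicate 1, 6 without gene trap replicate 2, and 2 in a fit of the C129 lines alone. At day 8 the lower members were Rpl15, by 0.47 ± 0.16 (adjusted p = 0.041), and Rpl41, by 0.25 ± 0.08 (adjusted p = 0.0393). Both calls were lost with upper-quartile and TMM rescaling, without C129 replicate 1, without either gene trap library and in a fit of the C129 lines alone, and the count was 3 in each of these fits.

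The other lists were also read in the mutants. Of 75 mitochondrial ribosomal proteins, 10 were higher and 0 lower in the gene trap at day 8, and 0 were higher and 7 lower in the Pali1 knockout at day 8. The shares of all genes were 9.59% higher and 10.6% lower in the gene trap and 7.07% higher and 6.52% lower in the knockout, and these counts lay near that background in the called direction. Across the 9 mutant comparisons 0.987% to 9.59% of all genes were higher and 0.719% to 10.6% lower. In the 7 remaining mutant comparisons 0 to 5 mitochondrial ribosomal protein genes were higher and 0 to 3 lower. Of 39 biogenesis factors 0 to 3 were higher and 0 to 5 lower in the 9 mutant comparisons, of 14 RNA polymerase I genes 0 to 3 and 0 to 3, of 21 regulators 0 to 2 and 0 to 3, of 7 snoRNA hosts 0 to 1 and 0 to 1, and of the 6 ribosomal protein genes outside the rule 0 and 0 to 1. Of 20 other TOP mRNAs 0 to 2 were higher and 0 to 5 lower, the 5 in the gene trap at day 4, where 4.96% of all genes were lower, among them Tpt1 by 0.50 (adjusted p = 0.00787) and Eef1b2 by 0.36 (adjusted p = 0.00984).

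**Figure D3:**
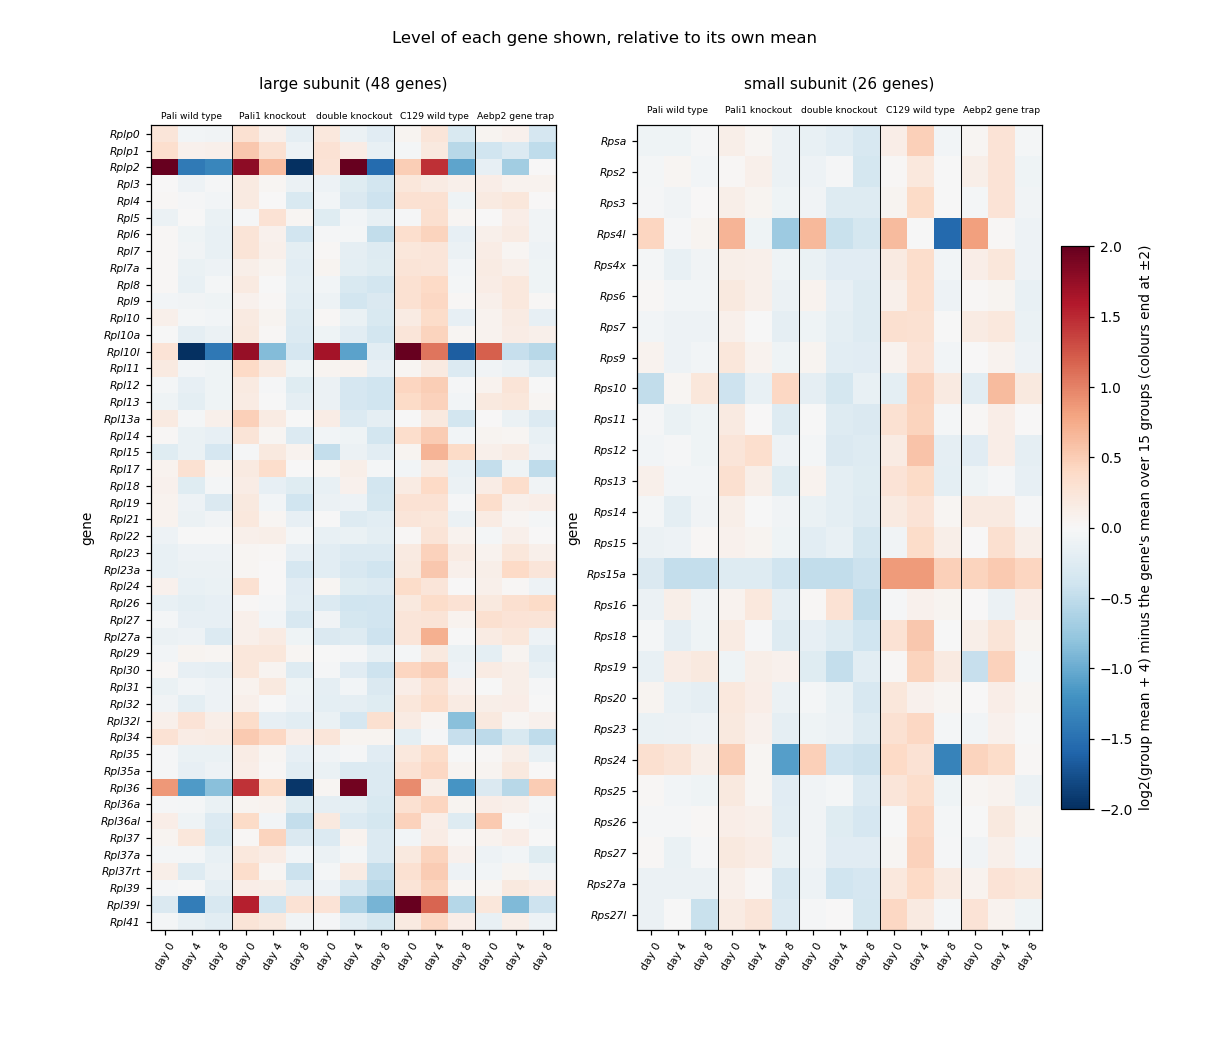
Level of the tested members, apart from those not reported here, in each of the 15 groups, as log2(group mean + 4) minus the gene's own mean over the groups, with the large subunit at left and the small subunit at right; colours end at -2 and 2. Most rows are pale, the C129 day 4 column is reddish down both panels, and Rps24, Rps4l, Rps15a, Rpl10l and Rpl39l carry strong colours, as do Rplp2 and Rpl36, whose duplicates disagree.

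A pair of members stood apart from the shared shift at day 8, Rps24 (chromosome 14, 24487125 to 24496959, plus strand) and Rps4l (chromosome 6, 148354656 to 148355598). Rps24 has 8 near-identical annotated copies and encodes a core small-subunit protein, also mutated in Diamond-Blackfan anaemia in humans. Rps4l is a single-exon relative of Rps4x that GENCODE annotates as a transcribed processed pseudogene, and it overlaps Tmtc1 on the opposite strand. Counting by strand is not stated in the sources used here, so reads from Rps4l and Tmtc1 may not have been told apart.

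Rps24 stood at 4088 and 3713 in Pali wild type at day 0, at 3781 and 3652 at day 4 and at 3199 and 3593 at day 8. In the Pali1 knockout it stood at 4272 and 4534, at 3209 and 3193, and at 1556 and 1342. In the double knockout it stood at 4519 and 4153, at 2266 and 2537, and at 2113 and 2534. All 6 day 0 libraries of the Pali lines thus lay between 3713 and 4534, while at day 8 the knockouts lay wholly below the wild type. In C129 wild type it stood at 4009 and 4213, at 4221 and 3431, and at 1448 and 1016, and in the Aebp2 gene trap at 4382 and 4101, at 4270 and 3816, and at 3322 and 3001. Low levels at day 8 were therefore seen in C129 wild type and the Pali1 knockout, and not in Pali wild type or the gene trap.

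At day 8 Rps24 was lower in the Pali1 knockout than in Pali wild type by 1.23 ± 0.14 (2.34-fold, adjusted p = 2.85e-05), with adjusted p up to 0.00133 over the alternatives. It was lower in the double knockout by 0.63 ± 0.14 at day 4 (adjusted p = 0.0264) and by 0.55 ± 0.14 at day 8 (adjusted p = 0.0242). The day 4 call was lost in each of the 4 leave-one-out fits, and the day 8 call without Pali wild type replicate 2 or double knockout replicate 1. It fell by 1.76 ± 0.14 from day 0 to day 8 in C129 (3.38-fold, adjusted p = 2.17e-08), was lower in C129 than in Pali wild type at day 8 by 1.48 ± 0.14 (adjusted p = 1.98e-06), and was higher in the gene trap than in C129 at day 8 by 1.38 ± 0.14 (2.6-fold, adjusted p = 3.46e-06). The last 3 comparisons share the 2 C129 day 8 libraries. Each of them, and the knockout at day 8, was called in every leave-one-out fit and under every other alternative.

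Rps4l was called in the same direction as Rps24 at day 8 in the Pali1 knockout, in C129 and in the gene trap. Unlike Rps24, it was not called in the double knockout at day 4 or day 8. From day 0 to day 4 Rps4l was called in both wild type lines and Rps24 in neither. It stood at 5162 and 4736, at 3518 and 3677, and at 3902 and 3679 in Pali wild type at the 3 times, and at 5163 and 6214, at 4053 and 3243, and at 1407 and 1086 in C129. At day 8 it stood at 2443 and 1956 in the Pali1 knockout, at 2721 and 2991 in the double knockout, and at 3354 and 3443 in the gene trap. The level at day 0 was above that of both later days in every library of every line. Rps4l was lower in the Pali1 knockout at day 8 by 0.79 ± 0.15 (1.73-fold, adjusted p = 0.00153), fell by 2.19 ± 0.15 from day 0 to day 8 in C129 (4.57-fold, adjusted p = 3.73e-09), and was higher in the gene trap than in C129 at day 8 by 1.46 ± 0.15 (2.74-fold, adjusted p = 3.46e-06). These calls held in every leave-one-out fit and under every other alternative. At day 4 it fell by 0.64 ± 0.15 in C129 (adjusted p = 0.0028) and by 0.46 ± 0.15 in Pali wild type (adjusted p = 0.0269); the first was lost in 1 and the second in all of the 4 leave-one-out fits.

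At day 8 the pluripotency factor Pou5f1 was lowest by mean in C129 wild type and the Pali1 knockout. It stood at 11925 and 11979 in Pali wild type, at 8666 and 6640 in the Pali1 knockout, at 8505 and 10058 in the double knockout, at 5742 and 2525 in C129 and at 10363 and 10731 in the gene trap. Ranked by mean, these 5 groups stood in the same order for Pou5f1, Rps4l and Rps24, a likeness noticed after the values were seen. Pou5f1 is 1 gene, and the sum of the 8 pluripotency markers did not separate Pali wild type from the gene trap. At day 8 that sum was 54898 to 64198 in Pali wild type and 58619 to 64178 in the gene trap. It was 37050.5 to 39315 in the double knockout, 27143 to 32388 in the Pali1 knockout and 16737 to 23062 in C129. At day 4 Pou5f1 stood at 10339 and 9482 in Pali wild type and at 21141 and 17101 in C129. Rps24 lay between 3431 and 4221 in these 4 libraries. The sum of the 8 markers was then 44835 to 45953 in Pali wild type and 48170.5 to 59534 in C129. At day 0 Pou5f1 lay between 19672 and 23514 in all 10 libraries. What cell composition contributes to Rps24 and Rps4l was not tested.

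Rpl10l (chromosome 12, 66283379 to 66284401, minus strand), a single-exon copy of the X-linked Rpl10 that replaces it in male meiosis in the mouse, varied widely. It stood at 384 and 316 in Pali wild type at day 0, at 65.3 and 42.8 at day 4 and at 126 and 84.5 at day 8. In C129 it stood at 2228 and 2372, at 699 and 523, and at 100.1 and 79.4. It thus fell with differentiation in both lines, from a stem cell level that was higher in C129. The Pali1 knockout stood at 952 and 1009, at 139 and 173, and at 228 and 231, the double knockout at 1216 and 630, at 166 and 105, and at 287 and 213, and the gene trap at 579 and 761, at 162 and 256, and at 166 and 224. Rpl10 itself stayed between 17890 and 31775 in the 30 libraries.

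The fall from day 0 was 2.63 ± 0.32 at day 4 and 1.71 ± 0.32 at day 8 in Pali wild type (adjusted p = 8.92e-06 and 0.000709), and 1.92 ± 0.32 and 4.63 ± 0.32 in C129 (adjusted p = 0.00019 and 4.73e-09). C129 was above Pali wild type by 2.71 ± 0.32 at day 0 and 3.42 ± 0.32 at day 4 (adjusted p = 1e-05 and 2.25e-06). All 6 of these calls held in every leave-one-out fit and other alternative. The Pali1 knockout was higher than Pali wild type by 1.48, 1.49 and 1.12, each ± 0.32 (adjusted p = 0.0117, 0.0159 and 0.0253), and the double knockout by 1.32, 1.26 and 1.23, each ± 0.32 (adjusted p = 0.0256, 0.0498 and 0.0276). At most 1 of the 4 leave-one-out fits kept each of these 6 calls, although no library of either mutant overlapped Pali wild type of the same day. The gene trap was lower than C129 by 1.79 ± 0.32 at day 0 (adjusted p = 0.00124) and by 1.55 ± 0.32 at day 4 (adjusted p = 0.00595), and higher by 1.08 ± 0.32 at day 8 (adjusted p = 0.0219). The first held in every fit and the others in 2 of 4; the day 4 call was lost without C129 or gene trap replicate 1, and the day 8 call without replicate 2 of either.

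Rpl39l, the testis paralog of Rpl39, had low values with a like order at day 0. It stood at 7.67 and 15 in Pali wild type, at 59.5 and 42.8 in the Pali1 knockout, at 29.4 and 7.84 in the double knockout, at 98.1 and 76.9 in C129, and at 19.2 and 16.9 in the gene trap. It was higher in C129 than in Pali wild type by 2.61 ± 0.44 (adjusted p = 0.000358) and fell by 2.85 ± 0.44 to day 8 in C129 (adjusted p = 3.45e-05), calls that held in every leave-one-out fit. It was higher in the Pali1 knockout by 1.87 ± 0.44 (adjusted p = 0.019), a call kept in 1 of 4 such fits, and lower in the gene trap by 2.04 ± 0.44 (adjusted p = 0.00475), a call lost without C129 replicate 1. Zscan4c, a marker of the 2-cell-like state that stem cells enter at times, stood at 23.0 and 34.2 in Pali wild type, at 246 and 520 in the Pali1 knockout, at 591 and 389 in the double knockout, at 14127 and 9862 in C129 and at 2177 and 1869 in the gene trap at day 0. Its part in the levels of both paralogs was not tested.

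**Figure D4:**
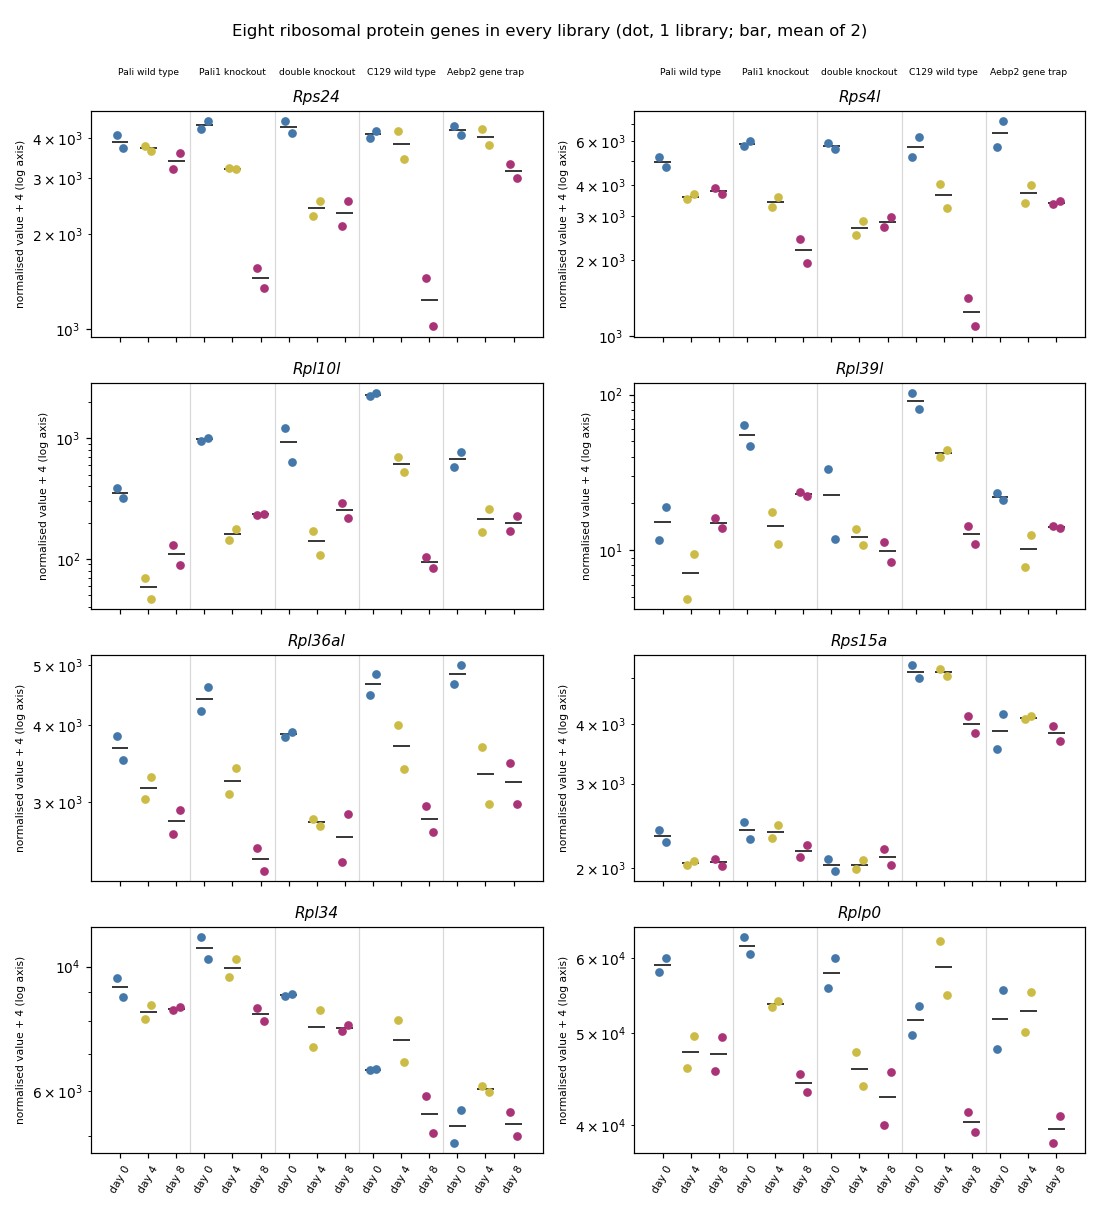
Normalised count + 4 on a log axis of 8 members in every library, by line and day; each dot is 1 library and each bar the mean of 2. Rps24 and Rps4l are lowest at day 8 in C129 wild type, Rpl10l and Rpl39l are highest at day 0 in C129 wild type, and Rps15a separates the Pali lines (at most 2487) from the C129 lines (at least 3546) at every time.

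The remaining paralogs moved less. Rpl36al, a copy of Rpl36a with 2 exons, stood at 3835 and 3512 in Pali wild type at day 0 and at 2668 and 2918 at day 8, and at 4473 and 4833 and then 2953 and 2686 in C129. It fell by 0.39 ± 0.11 to day 8 in Pali wild type (adjusted p = 0.0169), a call kept in 2 of 4 leave-one-out fits, and by 0.72 ± 0.11 in C129 (adjusted p = 4.9e-05), kept in all 4. The day 0 libraries lay above those of day 8 in both lines. Rps27l stood at 3835 and 3800 in C129 at day 0 and at 3041 and 2540 at day 8, and fell by 0.46 ± 0.15 (adjusted p = 0.0169), a call kept in 1 of 4 such fits. Rps27rt was not analysed here, and Rpl3l was not tested.

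Rps6, Rpl11, Rps25 and Rps19 were followed for their known roles. Rps6 lay between 2093 and 3510 in the 30 libraries, lowest in the double knockout at day 8 and highest in C129 at day 4. Rpl11 lay between 3005 and 5478, and Rps25 between 6511 and 11380. Rps19 lay between 3957 and 10964, a 2.77-fold range against the median of 1.88-fold over the 67 abundant members, and its duplicates in C129 at day 4 stood at 10964 and 6239; it was called in no comparison.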

How the data were processed

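The deposited values are the authors' normalised counts per gene (a signal: DESeq2, kallisto 0.43.1, HISAT2 2.0.5 and mm10 appear, without roles, in the submitters' processing notes), from total RNA depleted of ribosomal RNA and sequenced on a strand-marking library, per the labels. They are not raw counts: 82.3% to 86.1% of low values were whole multiples of a step within 0.001 step, too few to recover reads for a count test. Values were analysed as log2(value + 4) for the 15712 genes at 10 or more in at least 2 libraries, with group means for the 15 groups and trended, robust variances in limma 3.58.1 (R 4.3.3), Benjamini-Hochberg adjusted within each of 18 comparisons. The fit was tested on simulated data. The members and the lists (ribosomal proteins outside the symbol rule, other TOP mRNAs, snoRNA hosts, ribosome biogenesis, RNA polymerase I, mitochondrial ribosomal proteins, regulators) were chosen with earlier results of these data known. Named per comparison were up to 6 rising and 6 falling members by size among called members with a mean of at least 50, plus tissue paralogs, members with known roles, members under 10 in a library or with duplicates over 8-fold apart, and the 3 highest and 3 lowest per kb. Alternatives were pseudocounts of 1 and 16, no filter or a mean of 50, upper-quartile, TMM and equal-total rescaling, a replicate block, libraries of the same parent, removal of members at 0 or with discordant duplicates, and leaving out each library. Some members and related genes entered the fits and counts but are not reported here by name. Copies were found with blastn 2.17.0; tables were made with Python 3.11.15, pandas 2.3.3, numpy 2.4.6 and matplotlib 3.10.9.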

Additional observations from a re-analysis of the deposited data

Results flagged for a closer look

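The change over time of several members differed between the wild type lines in limma's test of the difference itself (adjusted p under 0.05). Counted in either direction, 7 of 78 members (8.97%) were called to day 4, against 8.99% of all genes. To day 8 it was again 7 of 78 (8.97%), against 14.2% of all genes. Members were thus called no more often than genes at large. From day 0 to day 4 the change in C129 minus that in Pali wild type was 0.58 for Rps27, 0.49 for Rplp0, 0.44 for Rps26, 0.41 for Rpl13a, 0.39 for Rps18 and 0.36 for Rps9, on the log2 scale. From day 0 to day 8 it was -2.91 for Rpl10l, -2.86 for Rpl39l, -1.81 for Rps4l, -1.56 for Rps24, -0.44 for Rpl13 and -0.37 for Rps23. None of the calls named for day 4 was kept in all 8 fits that left out 1 library; of those named for day 8, Rps23 was not.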

How the results depend on the processing

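The count of members called moved by more than 1.5 times under these settings; the cause was not tested. With upper-quartile rescaling it was 3 for the Pali1 knockout at day 0, 8 at day 8, 22 for the double knockout at day 8, 3 for the gene trap at day 8, 8 for Pali wild type at days 4 and 8 against day 0, and 12 for the difference in change to day 8. With TMM rescaling it was 2 for the Pali1 knockout at day 0, 3 for the gene trap at day 8, 15 for C129 against Pali wild type at day 0 and 11 for the difference in change to day 4. With equal totals it was 38 and 23 for C129 at days 4 and 8 against day 0, 17 for C129 against Pali wild type at day 8 and 15 for the difference in change to day 4, and the members' median for Pali wild type at day 8 against day 0 turned from -0.08 to 0.031; this setting moved the median of all genes to 0.14 there and to 0.19 for C129. For the double knockout at day 4 it was 1 with a pseudocount of 16, without a filter, and with upper-quartile or TMM rescaling, where the splits were 0 higher and 1 lower under both rescalings; for the gene trap at day 8 both rescalings gave 3 higher and 0 lower. With libraries of the same parent only, it was 0 for the double knockout at day 0, and 3, 2 and 3 for the gene trap at the 3 times. Leaving out 1 library at a time gave 0 to 2, 0 to 2 and 2 to 4 calls for the Pali1 knockout at days 0, 4 and 8, 0 to 1, 0 to 2 and 0 to 7 for the double knockout, 2 to 14, 0 to 31 and 3 to 5 for the gene trap, 1 to 5 and 1 to 3 for Pali wild type at days 4 and 8, 8 to 28 and 27 to 36 for C129, 12 to 19, 35 to 55 and 8 to 12 for C129 against Pali wild type, and 0 to 16 and 5 to 11 for the differences in change. Same-numbered libraries deviated together at most weakly (correlations of -0.06 to 0.109), and the main fit did not pair them. With 2 libraries per group, such values do not show that a shared batch is absent. With a replicate block the counts were 7, 2 and 4 for the Pali1 knockout and 1, 2 and 16 for the double knockout. They were 13, 20 and 5 for the gene trap, and no count moved by over 1.5 times.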
